A study of Mus musculus with 72 samples.

Results

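The transcripts of 8 genes of peripheral nerve were followed in bulk RNA-Seq of mouse gastrocnemius, a hindlimb muscle whose nerve branches are collected with the fibers. They were Mbp, Pmp22 and Prx, which encode proteins of the myelin sheath and its Schwann cell, the transcription factors Sox10 and Egr2, the receptor Ngfr, the adhesion protein Cntn2 and the calcium-binding protein S100b. The 8 genes, of 55401 in the tables, were chosen by their known place in Schwann cells and nerve after an earlier look at these data, in which Schwann cell transcripts had lower normalized counts in KO+GFP than in KO control muscle. That contrast is therefore given as a description. The question was whether the nerve genes differed between muscles only as the amount of nerve in each sample did, or also among themselves.

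All mice were male. Bmal1-KO mice lack the clock factor BMAL1 (gene Arntl in the tables) in every tissue, and WT mice were their littermates. KO+AAV mice were Bmal1-KO mice injected at postnatal day 5 with an AAV9 vector that carries HA-tagged Bmal1 cDNA under CK6, a promoter active in muscle, and whether any of it reached Schwann cells was not measured here. Gastrocnemius, always collected at Zeitgeber time 1, the hour after lights on, was taken at 10 weeks from 6 WT, 6 KO and 7 KO+AAV mice, then at 40 weeks from 5 of each genotype and treatment. A separate set held 3 KO mice given the same vector with GFP in place of Bmal1 and 3 KO controls, all at 10 weeks. At 40 weeks 4 other tissues (lung, liver, heart and white fat) were sequenced from 4 KO and 4 KO+AAV mice.

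The 34 gastrocnemius libraries held 9325122 to 41733282 reads on genes, with 10 of the 10-week libraries sequenced more deeply at a core facility (ICBR) and the other 24 at Novogene. Arntl, summed over all its exons, so that transcripts keeping the undeleted exons were counted too, had normalized counts of 402 to 634 in the 11 WT libraries and of 196 to 296 in the 6 KO libraries at 10 weeks, and did not overlap between them. The KO+AAV libraries did not lie above those of KO, with 169 to 281 at 10 weeks and 268 to 359 at 40 weeks, and KO+AAV minus KO, at -0.06 and -0.48 log2 units (-0.16 at 40 weeks without KO replicate 2), passed at neither age (limma). At 40 weeks 4 KO libraries had 308 to 395, but the library labelled KO replicate 2 had 1039, above each WT library, with Sox10 at 3.58 and S100b at 0. It was kept under its label, and 40-week results that rest on it are given with and without it, a choice made after its values were seen. Muscle fiber genes were abundant in each of the 40 gastrocnemius libraries, and of the neuronal markers Chat, the acetylcholine synthesis enzyme of motor neurons, had no read in any of them. Other neuronal markers were read. Without KO replicate 2, 3 genes of the axon and neuron list were tested between 10 and 40 weeks in KO muscle, and 1 passed. This was Uchl1, higher at 40 weeks by 2.03 (adjusted P = 0.0447, limma). With that library it was at 2.35 (adjusted P = 0.0101, limma), where 8.31% of all genes passed.

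Schwann cells wrap the axons of peripheral nerve. Sox10 maintains the lineage and, with Egr2, drives the myelin genes; in adult nerve the myelin proteins are made by Schwann cells that wrap large axons, whereas Ngfr, the low-affinity neurotrophin receptor p75, is known from Schwann cells that do not myelinate or that have lost their axon. Cntn2 (TAG-1) is an adhesion molecule of the juxtaparanode, beside the node of Ranvier, made by both the axon and the Schwann cell. S100b is a standard marker of Schwann cells. In whole muscle, fewer Schwann cells and less RNA of these genes per cell cannot be told apart.

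The stretches upstream of 3 members are shown because the study concerns BMAL1, a factor that binds E-boxes, and because these genes stand for a myelin protein, a myelin regulator and the member that differed most between groups. They are the 250 bases before the RefSeq start in GRCm38.p6, each read 5′ to 3′ on the gene's own strand, with capitals marking the E-box CACGTG.
Prx, chr7:27499074-27499323, plus strand: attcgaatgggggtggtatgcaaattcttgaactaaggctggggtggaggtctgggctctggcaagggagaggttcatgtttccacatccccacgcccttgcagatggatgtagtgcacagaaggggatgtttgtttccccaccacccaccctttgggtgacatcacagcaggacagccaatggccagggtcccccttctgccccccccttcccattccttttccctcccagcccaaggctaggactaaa
Egr2, chr10:67535249-67535498, plus strand: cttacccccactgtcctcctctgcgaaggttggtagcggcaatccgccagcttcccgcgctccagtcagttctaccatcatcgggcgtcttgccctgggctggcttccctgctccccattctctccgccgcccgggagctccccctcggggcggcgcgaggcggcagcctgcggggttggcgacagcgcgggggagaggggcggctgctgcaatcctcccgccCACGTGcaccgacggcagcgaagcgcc
Cntn2, chr1:132542941-132543190, minus strand: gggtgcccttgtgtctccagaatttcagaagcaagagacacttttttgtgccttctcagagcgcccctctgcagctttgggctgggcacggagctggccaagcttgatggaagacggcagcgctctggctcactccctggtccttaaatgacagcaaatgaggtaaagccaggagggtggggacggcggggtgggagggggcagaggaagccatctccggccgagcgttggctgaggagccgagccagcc

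RefSeq starts were found for 6 of the 8 members, 13 starts in all. The E-box CACGTG, the same on both strands, lay in 1 of the 13, that of Egr2, and in 6.02% of all 32851 promoter windows of this length. The SOX core ACAAAG, on either strand, was in none of the 13 and in 16.5% of all windows, and the EGR motif GCGTGGGCG was in none of the 13 and in 0.536% of all. The windows of Prx, Egr2 and Cntn2 were 56.4%, 71.2% and 61.2% G and C. These matches describe the letters and show no binding.

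In GRCm38, with genes as in GENCODE vM21 and reads summed over exons, Cntn2 spans chr1:132509427-132543256 (minus strand), Prx chr7:27499324-27520214 (plus), Egr2 chr10:67535475-67542188 (plus), S100b chr10:76253853-76261159 (plus), Pmp22 chr11:63128982-63159547 (plus), Ngfr chr11:95568818-95587735 (minus) and Sox10 chr15:79154908-79165240 (minus). For Cntn2 and Egr2 these starts differ from the RefSeq starts used above. The window shown for Cntn2 thus lies within the GENCODE gene, and that of Egr2 runs past the GENCODE start, where its E-box lies. Of the exon bases of Prx, 5.38% overlap Gm15541 on the other strand, and without a stated strand setting reads there cannot be told apart.

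The members spanned a wide range of abundance. As RPKM, which divides the reads of a gene by its exon length and by the depth of the library, the median over the 34 libraries was 12.3 for Pmp22, a membrane protein of compact myelin, 3.45 for Mbp, which holds the cytoplasmic faces of myelin together, and 1.94 for Prx, periaxin, which links the Schwann cell membrane to its scaffold. The median was 0.671 for S100b, 0.552 for Sox10, 0.295 for Ngfr and 0.215 for Egr2, and 0.0103 for Cntn2, which had no read in 10 of the 34 libraries. The myelin structural genes thus stood well above the regulators, while the ranges of neighbouring genes in this order overlapped.

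**Figure D1:**
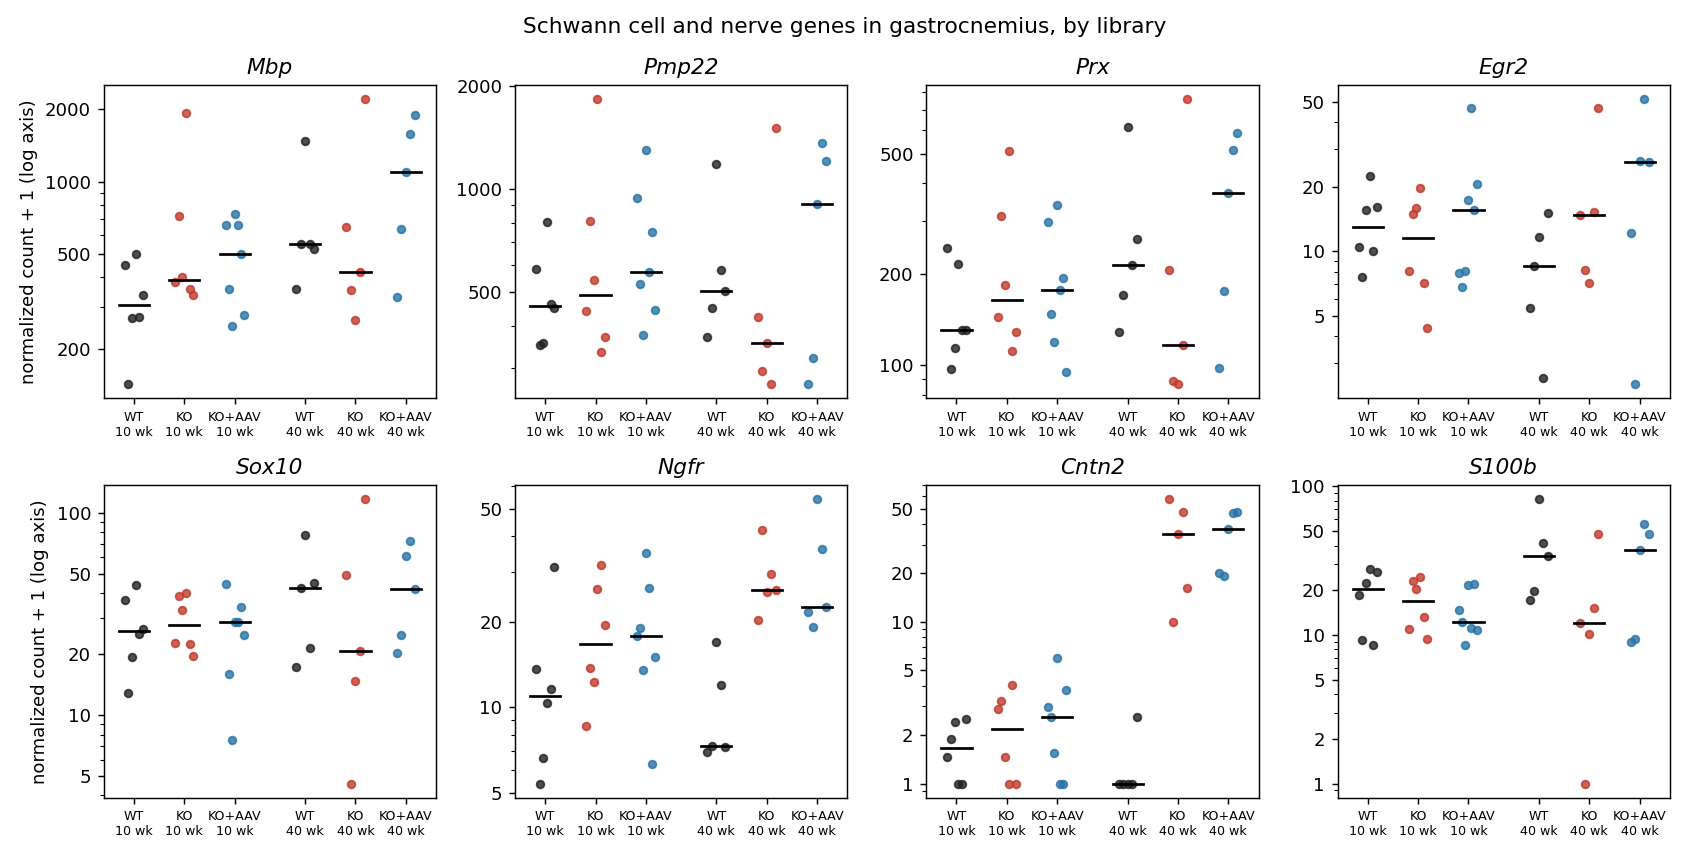
Normalized count plus 1 (log axis) of each of the 8 genes in each gastrocnemius library, by group and age, with a bar at the group median. Mbp, Pmp22 and Prx scatter widely within each group, and Cntn2 is at or near 0 in the groups other than KO and KO+AAV at 40 weeks.

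Library to library, the spread of the myelin genes within a group was large. At 40 weeks the normalized counts of Mbp in WT muscle were 357, 548, 1481, 549 and 524, in KO muscle 644, 353, 265, 418 and 2207, and in KO+AAV muscle 328, 632, 1092, 1576 and 1895. The single highest libraries of WT and of KO, replicates 3 and 5, stood far above the rest of their groups, and the 3 groups overlapped throughout. Prx followed the same libraries, with 128, 170.4, 612, 214 and 261 in WT, 205, 87.8, 85.8, 116 and 758 in KO, and 97.2, 175, 370.5, 516 and 584 in KO+AAV. Pmp22 did so too, with 1182 in WT replicate 3 and 1509 in KO replicate 5, against 369 to 580.1 and 269 to 424 in the other libraries of those groups. Over all 34 libraries the ratio of the highest to the lowest normalized count was 15.5 for Mbp, 8.84 for Prx, 6.81 for Pmp22, 32.3 for Sox10, 35.9 for Egr2 and 12.2 for Ngfr.

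The nerve content of each library was summarized as a nerve index, the mean of log2(normalized count + 1) over 14 other genes of myelinating Schwann cells, among them Mag, Gjb1 and Cldn19, none of them a member. At 10 weeks its mean was 4.43 ± 0.43 (SD, n = 6) in WT muscle, 5.08 ± 0.76 (n = 6) in KO and 4.78 ± 0.68 (n = 7) in KO+AAV muscle. At 40 weeks it was 5.07 ± 0.65, 4.83 ± 1.17 and 5.53 ± 1.14 (n = 5 each). The ranges of all 6 groups overlapped. None of the 14 genes passed the test in any of the 9 comparisons of gastrocnemius groups by genotype, vector or age.

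Once group and site means were removed, Prx, Pmp22 and Mbp followed this index almost library by library, with Pearson r of 0.96, 0.96 and 0.95 across the 34 libraries, which share their depth and scaling with the index. Sox10 had r = 0.80, S100b 0.74 and Egr2 0.62. Ngfr, at 0.21, did not go with it over all groups together. Cntn2 had 0.01, an r that rests mostly on libraries where it was at or near 0. Among the members themselves Mbp and Prx had r = 0.98, Pmp22 and Prx 0.96, and Sox10 and S100b 0.82, whereas Cntn2 and Ngfr had 0.20. Subtracting the index from each library lowered the spread of Mbp, Pmp22 and Prx in each of the 6 groups, from SDs of 0.456 to 1.31 log2 units before to 0.0842 to 0.439 after. The reduction was smallest for Pmp22 in 10-week WT muscle, from 0.456 to 0.219, and largest for Prx in 40-week KO+AAV muscle, from 1.10 to 0.0842. For Ngfr in 40-week KO muscle the SD went up, from 0.39 to 1.38. In the 2 groups where Cntn2 was not near 0, its SD went up in 40-week KO muscle, from 1.07 to 1.75. In 40-week KO+AAV muscle the SD of Cntn2 went down, from 0.647 to 0.556.

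**Figure D2:**
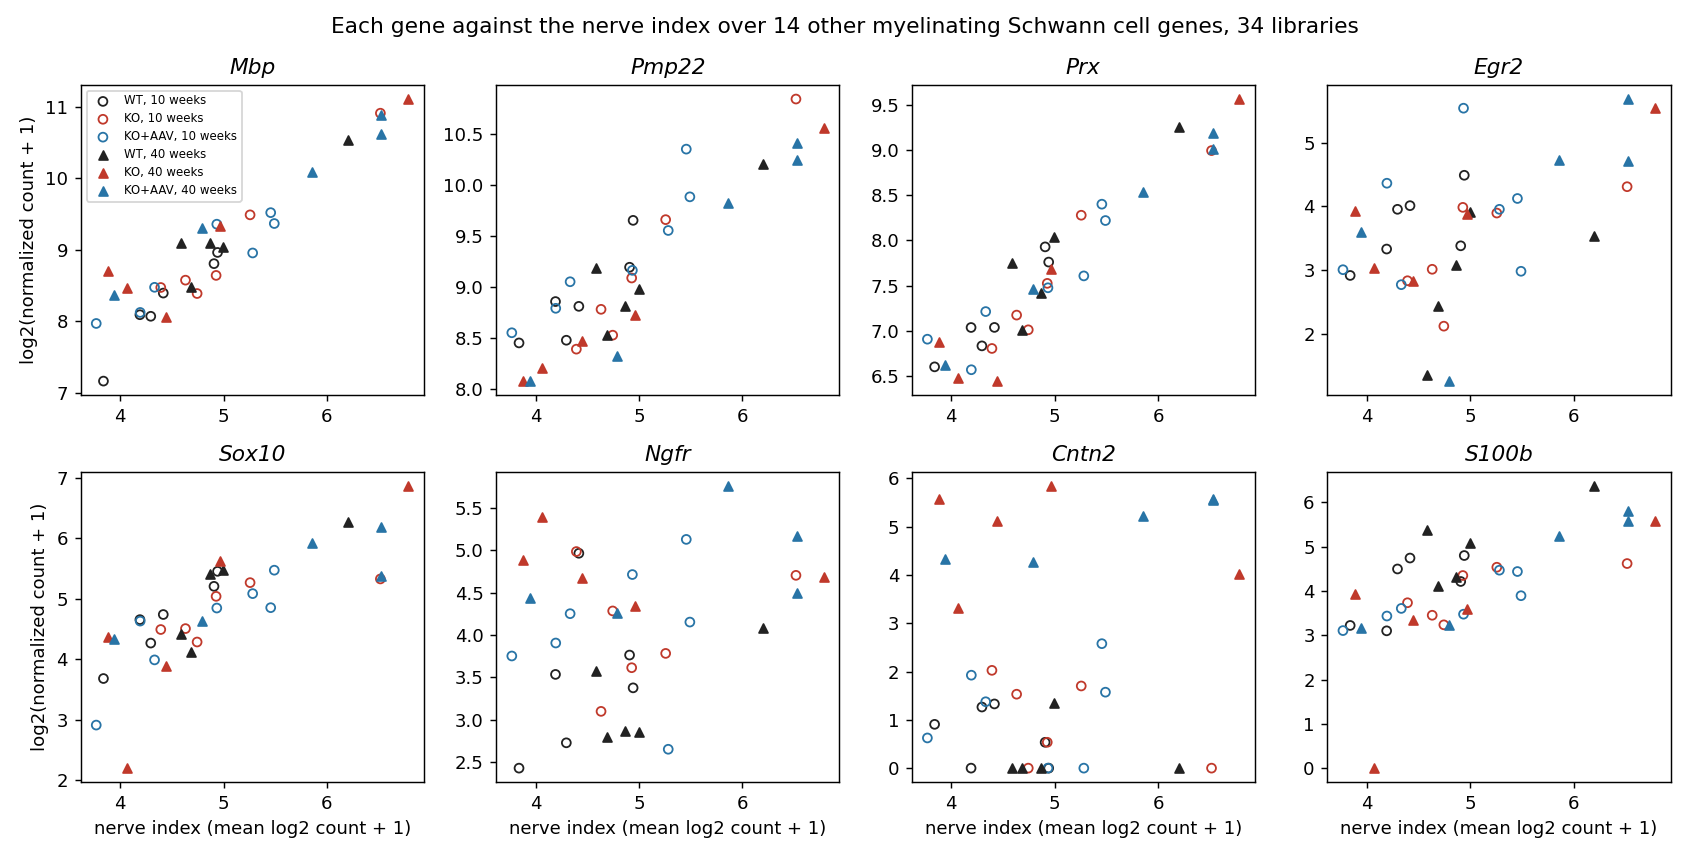
log2(normalized count + 1) of each gene (y axis) against the nerve index, the mean log2 value of 14 other myelinating Schwann cell genes (x axis), with 1 point for each of the 34 gastrocnemius libraries (open circles 10 weeks, filled triangles 40 weeks). Mbp, Pmp22 and Prx lie along a line in all groups, while the 40-week KO and KO+AAV points of Cntn2 lie above the others at every value of the index.

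Among the 10 transcripts whose pattern within groups was most like the members' mean were Ndrg1 (r = 0.89), Aatk (0.89), Ugt8a (0.87), Plekha4 (0.87), Cldn19 (0.86), Kif1a (0.84), Mag (0.84), Vat1l (0.84) and Sept3 (0.84), again over 34 libraries. Ugt8a, which makes the galactolipids of myelin, the tight junction protein Cldn19 and the adhesion protein Mag belong to the nerve index, and Ndrg1, Aatk, Plekha4, Kif1a, Vat1l and Sept3 do not. Ndrg1 is known for a myelin neuropathy when mutated. Its normalized counts ran from 257 to 844, with a median of 363.

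At 10 weeks no nerve gene separated the genotypes. Mbp had normalized counts of 143 to 499 in WT with a median of 304, of 335 to 1924 in KO with a median of 390.0, and of 250.2 to 734 in KO+AAV with a median of 496. The ranges overlapped, and the KO range was stretched by replicate 5 alone, the next library being at 718. The log2 difference WT minus KO was -0.83 (SE 0.47) for Mbp, -0.43 (SE 0.48) for Prx, -0.31 (SE 0.44) for Pmp22, -0.15 (SE 0.52) for Sox10 and -0.61 (SE 0.39) for Ngfr, and 0.32 (SE 0.58) for Egr2 and 0.11 (SE 0.60) for S100b. None of the 8 passed the test, limma on log2(normalized count + 1) with the Benjamini-Hochberg adjusted P under 0.05, against 8% of all 16199 genes tested, and the smallest adjusted P was 0.358. WT minus KO+AAV called none either, with differences of -0.65 to 0.32 against 5.15% of all genes, and KO+AAV minus KO called none, with -0.26 to 0.50 against 0.204%. No member had an unadjusted P under 0.05 in any of the 3, and edgeR and DESeq2 called none either. The SEs were 0.37 to 0.60 log2 units, so that small differences were not detectable in these groups, and even that of Mbp, at -0.83, did not pass.

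Mbp WT minus KO was -0.89 (SE 0.47) among the ICBR libraries and -0.77 (SE 0.56) among the Novogene libraries, and none of the members that could be tested passed in either site. For Ngfr WT minus KO+AAV was -1.35 (adjusted P = 0.129, limma) at ICBR and 0.20 (adjusted P = 0.932, limma) at Novogene. The signs differed, but neither value passed, and their confidence intervals, -2.25 to -0.45 and -1.09 to 1.49, overlapped. The Novogene value includes WT replicate 7, with a normalized count of 30.3 against 12.6 for the next WT library. Whether the difference depended on the site was not tested. Cntn2 was below the count filter within each site.

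At 40 weeks Cntn2, and Ngfr as given below, did not overlap between WT and KO muscle or between WT and KO+AAV muscle. The normalized counts of Cntn2 were 0, 0, 0, 0 and 1.56 in WT, 56.4, 8.95, 33.7, 46.4 and 15.2 in KO, and 19.1, 18.2, 36.6, 45.8 and 46.7 in KO+AAV. Each library of KO and KO+AAV was above each of WT. In reads, 1 was counted in the 5 WT libraries together, 105 in KO and 127 in KO+AAV, which gives a ratio of 108 for KO over WT (95% exact counting interval 19.0 to 4308) and of 113 for KO+AAV over WT (19.9 to 4494). The intervals cover counting error only. Genes were tested where their mean over the 34 libraries was above 5, and Cntn2 was tested only through these 2 groups, with means of 32.1 and 33.3 against at most 1.70 in the other 4, so that as a tested gene it had to differ. Its fitted values are therefore a description. They also depend on the pseudocount of 1, since WT was near 0. The fitted log2 difference was -4.50 for WT minus KO (SE 0.52, adjusted P = 1.09e-07, limma) and -4.72 for WT minus KO+AAV (SE 0.52, adjusted P = 1.19e-07), and with all genes of at least 1 read tested the adjusted P were 2.65e-07 and 3.08e-07 (limma). Without KO replicate 2 the former was -4.86 (adjusted P = 3.86e-08, limma). KO+AAV and KO did not pass the test against each other, with a ratio of 1.04 (0.80 to 1.37).

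Ngfr was also higher in KO and in KO+AAV than in WT muscle. Its normalized counts at 40 weeks were 5.93, 6.27, 15.9, 10.9 and 6.25 in WT, 19.3, 41.2, 24.5, 28.6 and 24.8 in KO, and 20.7, 18.2, 53.2, 35.1 and 21.6 in KO+AAV. No WT library reached the lowest of the other groups. The log2 difference was -1.56 for WT minus KO (SE 0.42, 95% CI -2.42 to -0.70, adjusted P = 0.00703, limma) and -1.59 for WT minus KO+AAV (SE 0.42, adjusted P = 0.0108). Without KO replicate 2, the highest KO library, the former was -1.41 (adjusted P = 0.0235, limma).

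S100b went the other way, but weakly. Its normalized counts were 16.3, 18.8, 81.4, 40.7 and 32.8 in WT, 11.0, 0, 9.20, 14.3 and 46.9 in KO, and 7.97, 8.42, 36.6, 54.9 and 46.7 in KO+AAV. The groups overlapped, since KO replicate 5, the library richest in myelin genes, lay above 4 of the WT libraries. WT minus KO was 1.76 (SE 0.66, adjusted P = 0.0498, limma), at the edge of the threshold, and without KO replicate 2, where S100b had no read, it was 0.94 (adjusted P = 0.247). WT minus KO+AAV was 0.45 (SE 0.66) and did not pass.

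The myelin genes themselves showed no difference between the 40-week groups that passed the test. WT minus KO was 0.12 (SE 0.52, 95% CI -0.94 to 1.18) for Mbp, 0.33 (SE 0.48) for Pmp22 and 0.49 (SE 0.53) for Prx, and among the regulators 0.55 (SE 0.57) for Sox10 and -0.97 (SE 0.63, 95% CI -2.26 to 0.31) for Egr2. Sox10 was 3.58 in KO replicate 2, against 13.8 to 116 in the other KO libraries. Its difference ran from -0.07 to 1.12 over the alternatives, none of them called. WT minus KO+AAV was -1.13 (SE 0.63) for Egr2 and did not pass. Without KO+AAV replicate 2 it was -1.81 and passed (adjusted P = 0.0374, limma). In all, with Cntn2 included, 3 of the 8 members passed WT minus KO, 1 of them higher and 2 lower in WT, where 23.5% of all genes passed, and 2 of 8 passed WT minus KO+AAV, where 12.5% did. With so few members these numbers of calls say nothing about nerve genes as a group. KO+AAV minus KO called none of the 8 by limma, edgeR or DESeq2, and none had an unadjusted P under 0.05, against 0.259% of all genes called. In the main fit all 8 differences were above 0, from 0.03 to 1.31, beside a nerve index of 5.53 in KO+AAV and 4.83 in KO. The median over all genes was 0.016, and the share of all genes above 0 was not counted. The common sign did not hold throughout. Over the alternatives, which include leaving out each library, the lowest values were -0.14 for Cntn2, -0.20 for Ngfr and -0.27 for Egr2. S100b fell as low as 0.49, and it and the other members stayed above 0.

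Between 10 and 40 weeks the reads of Cntn2 went up in both KO groups. At 10 weeks its normalized counts were 0 to 1.51 in WT, 0 to 3.07 in KO and 0 to 4.97 in KO+AAV, with 7, 13 and 23 reads in all. The ratio of 40 to 10 weeks in reads was 22.3 in KO (95% counting interval 12.5 to 43.2) and 15.7 in KO+AAV (10.0 to 25.7). The fitted difference, a description for the reason given, was 4.13 log2 units in KO (SE 0.53, adjusted P = 0.000103, limma) and 4.21 in KO+AAV (SE 0.52, adjusted P = 5.59e-06). With all genes of at least 1 read tested the adjusted P were 0.000256 and 1.38e-05 (limma). None of the other 7 members passed in either, against 8.31% and 8.53% of all genes. In WT none of the 8 passed or had an unadjusted P under 0.05, against 0.148% of all genes called, and Cntn2 had a difference of -0.07 (SE 0.53). The fitted age differences of Cntn2 lay apart between genotypes by -4.21 for WT against KO (SE 0.70, adjusted P = 0.00434) and -4.29 for WT against KO+AAV (SE 0.69, adjusted P = 0.00183, limma), in tests that called 0.37% and 0.642% of all genes. These values rest on the same 2 groups, and without the filter the adjusted P were 0.00962 and 0.00355 (limma). The corresponding test of KO+AAV against KO called none of the members, and 0.00617% of all genes. Without KO replicate 2 the age difference in KO was 4.50 and the difference from WT -4.57 (adjusted P = 0.0021, limma). All 40-week libraries were made at Novogene, so the site term of the age comparisons was estimated from the 10-week libraries.

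For Ngfr the age difference was -0.47 in WT muscle and 0.48 and 0.47 in KO and KO+AAV muscle (SE 0.43 each), and neither these nor their difference passed (WT against KO -0.95, adjusted P = 0.486, and WT against KO+AAV -0.94, adjusted P = 0.539, limma). Its separation at 40 weeks was thus not shown to have grown with age. The same test for S100b gave 1.65 (adjusted P = 0.431, limma) for WT against KO. For the 3 myelin genes the age difference in WT ran from 0.21 for Pmp22 to 0.87 for Mbp, in KO from -0.43 for Pmp22 to -0.07 for Mbp, and in KO+AAV from 0.01 for Pmp22 to 0.88 for Mbp, and none passed.

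Adding the nerve index to the fit asked whether a gene differed beyond the myelin content of its library. It narrowed the error of the myelin genes, at 10 weeks WT minus KO from an SE of 0.47 to 0.17 for Mbp, from 0.48 to 0.15 for Prx and from 0.44 to 0.14 for Pmp22. At 40 weeks WT minus KO at equal index was -0.12 for Mbp (95% CI -0.48 to 0.24), 0.11 for Pmp22 (-0.19 to 0.41) and 0.24 for Prx (-0.09 to 0.57). KO+AAV minus KO, which before the index was 0.72 for Mbp, 0.57 for Pmp22 and 0.76 for Prx, became 0.02 (-0.36 to 0.39), -0.09 (-0.40 to 0.22) and 0.03 (-0.31 to 0.37). No interval of these 3 genes at 40 weeks reached beyond 0.57 log2 units from 0. The differences of the 14 genes that make up the index must average 0 at equal index, so that genes on both sides were fixed in advance. Of these genes 3 passed WT minus KO at equal index, Gal3st1 higher (1.72) and Drp2 (-0.60) and Gldn (-0.85) lower in WT. Their opposite directions are therefore no finding.

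Ngfr passed at equal index too, and the fitted values of Cntn2 stayed where they were. Within groups Ngfr and Cntn2 went little with the index (r = 0.21 and 0.01), so that adding it could hardly move them. For these genes the fit was thus little of a test. WT minus KO at 40 weeks was -4.50 for Cntn2 (SE 0.53, adjusted P = 1.83e-07, limma) and -1.60 for Ngfr (SE 0.42, adjusted P = 0.00573), and WT minus KO+AAV -4.71 (adjusted P = 2.64e-07) and -1.51 (adjusted P = 0.0161). S100b WT minus KO was 1.53 (SE 0.46, adjusted P = 0.0154, limma), and 0.90 (adjusted P = 0.0599) without KO replicate 2. Without that library Cntn2 was -4.86 and Ngfr -1.42 (adjusted P = 0.0200, limma) for the same comparison. At 40 weeks, with Cntn2 included, 3 of 8 members passed WT minus KO at equal index against 23.9% of all genes. In WT minus KO+AAV, Cntn2 again included, 2 of 8 passed against 13.4%, and in KO+AAV minus KO none did against 0.228%. The fitted values of Cntn2 are a description here too. At 10 weeks none passed WT minus KO (7.98% of all genes), WT minus KO+AAV (4.65%) or KO+AAV minus KO (0.296%). Pmp22 had an unadjusted P under 0.05 both in KO+AAV minus KO, at 0.39 (95% CI 0.13 to 0.66, adjusted P = 0.228, limma), and in WT minus KO, at 0.30 (0.02 to 0.58, adjusted P = 0.217). These 10-week values depend on the genes of the index. With an index of Schwann lineage and non-myelinating genes instead, Mbp in WT minus KO went from -0.18 to -0.85 and passed (adjusted P = 0.0195, limma), Pmp22 turned from 0.30 to -0.33 and Prx from 0.24 to -0.46, neither passing, and Pmp22 in KO+AAV minus KO was 0.16 (adjusted P = 0.845).

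**Figure D3:**
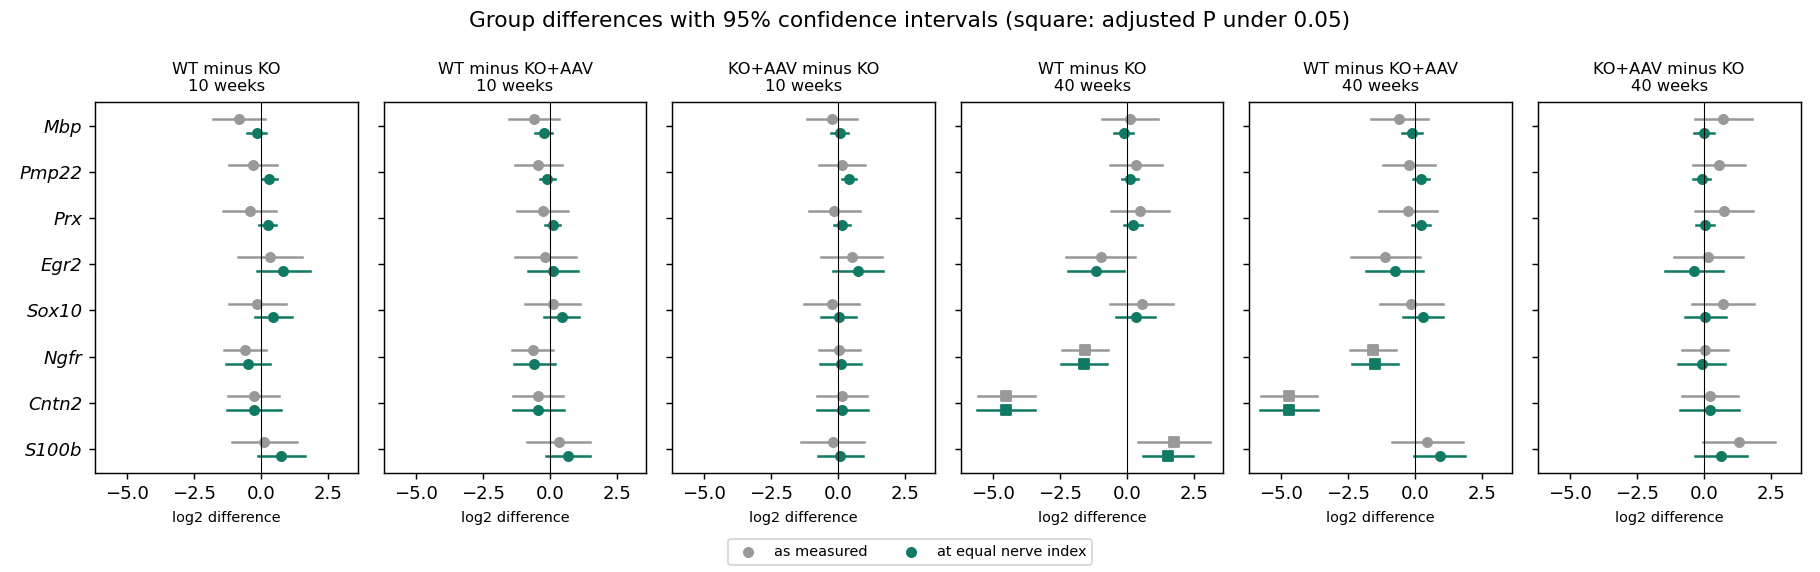
log2 difference (x axis) of each gene in the 6 comparisons of gastrocnemius groups, as measured (grey) and at equal nerve index (green), with 95% confidence intervals and squares where the adjusted P was under 0.05. The intervals of Mbp, Pmp22 and Prx are narrower at equal index and hold 0, except those of Pmp22 at 10 weeks in WT minus KO and KO+AAV minus KO, which lie above 0, and Cntn2 and Ngfr at 40 weeks stay where they were.

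Other genes of nerve and muscle were counted from lists, the members left out. Over all genes, in either direction, 23.5% passed WT minus KO and 12.5% WT minus KO+AAV at 40 weeks, and 8% WT minus KO at 10 weeks. Lists of so few genes, with counts near these shares, say nothing about a list as a group. In WT minus KO at 40 weeks 0 of 14 myelinating Schwann genes passed, with a median of 0.02 against 0.01 over all genes, and 1 of 11 tested genes of the Schwann lineage and non-myelinating cells, the adhesion molecule Ncam1, which was at -1.15 (adjusted P = 0.00951, limma) and lower in WT, also without KO replicate 2 (-0.99). Of the 8 tested genes of the node and its borders, 3 were higher and 2 lower in WT. Those higher were Cntnap2, the partner of Cntn2 at the juxtaparanode (2.97, adjusted P = 0.00473, limma), Cntnap1 of the paranode (1.19, adjusted P = 0.0272) and Epb41l3, a band 4.1 protein that anchors such partners (0.87, adjusted P = 0.0299). Cntnap2 had normalized counts of 265, 124, 296, 238 and 113 in WT, 57.8, 0, 15.3, 121 and 75.8 in KO and at most 107 in KO+AAV, and KO overlapped WT by 1 library. Without KO replicate 2, where it had no read, Cntnap2 was at 1.82 (adjusted P = 0.0144, limma), while Cntnap1 was at 0.59 (adjusted P = 0.134) and no longer passed. The 2 lower in WT were Ank3, ankyrin-G, at -0.72 (adjusted P = 0.00391, limma) and Nrcam at -1.29 (adjusted P = 0.0191), and for WT minus KO+AAV Ank3, Nrcam and the potassium channel Kcna1 were lower and none was higher.

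Denervation and junction genes, which muscle fibers raise when they lose their nerve, moved beside Cntn2 and Ngfr. In WT minus KO at 40 weeks 6 of 9 tested, Ncam1 among them, were lower in WT and none higher, with a median of -1.42. Over all genes 23.5% passed there. Without KO replicate 2, 6 were lower, with a median of -1.04. Chrna1, the acetylcholine receptor alpha subunit, was at -1.55 (adjusted P = 1.74e-06), Gadd45a at -1.92 (adjusted P = 2.30e-06) and the myogenic factor Myog at -1.83 (adjusted P = 0.000125, limma). In WT minus KO+AAV, where 12.5% of all genes passed, 4 of 9 were lower, among them Runx1 at -2.37, Myog at -2.29 and Gadd45a at -2.01. Their summed normalized counts were 1208 to 1418 in WT, 1935 to 3875 in KO and 1976 to 2801 in KO+AAV at 40 weeks. At 10 weeks 2 of 9 were lower in WT than in KO, Chrna1 at -1.32 and Gadd45a at -0.93, against 8% of all genes called, while no member passed. What part of the Cntn2 and Ngfr reads came from fibers was not tested.

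Among 9 tested neurotrophin ligands and receptors Ntf5 (neurotrophin 4) was higher in WT than in KO at 10 weeks, by 1.06 (adjusted P = 0.00118, limma), and at 40 weeks, by 1.16 (adjusted P = 0.000492), with normalized counts of 95.2 ± 6.82 (SD, n = 5) in WT and 45.1 ± 17.4 in KO. Gfra1, the receptor subunit for Gdnf, was higher in WT at 40 weeks by 1.19. Against KO+AAV, Ntf5 was higher by 1.06 in WT and Bdnf and Gdnf lower, at -1.96 and -1.82. Bdnf is a ligand of the receptor that Ngfr encodes. Of the 9 tested regulators of myelination, Zeb2 (0.90) and Tead1 (0.65) were higher and the Hippo coactivators Yap1 (-0.68) and Wwtr1 (-0.37) lower in WT than in KO at 40 weeks. Wwtr1 no longer passed without KO replicate 2, at -0.27. Muscle fibers express these regulators too.

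Some markers of other cells differed with genotype at 40 weeks as well, where 23.5% of all genes passed WT minus KO. In WT minus KO 3 of 7 fibroblast genes were higher in WT, among them Dpt at 1.98, and 2 of 5 adipocyte genes, Lep at 5.82 and Adipoq at 2.06. The summed fibroblast genes overlapped between the groups, at 7525 to 11393 in WT and 2649 to 8558 in KO. Of 8 slow fiber genes 1 passed, Myoz2, lower in WT at -2.01 (adjusted P = 0.00944, limma), and the list had a median of -2.28, or -2.22 without KO replicate 2. The summed slow fiber genes were 1951 to 28965 in WT, 11427 to 166976 in KO and 5485 to 36916 in KO+AAV, and overlapped. None of 8 macrophage genes passed, and 2 of 6 endothelial genes were lower, 1 of them without KO replicate 2. Of the 3 melanocyte genes tested, which other Sox10 cells express, Dct was lower in WT at -3.61 (adjusted P = 0.00111, limma), while the median of the 3 was 0.14, and Tyr and Mlana had no read in WT or KO. Without KO replicate 2 Dct was at -3.43 and Mitf was higher in WT, at 0.30 (adjusted P = 0.0286, limma), which was also the median. Their part in the member results was not tested.

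In the GFP set the members are described without a test, since this contrast was in view when they were chosen. Mbp had normalized counts of 104, 91.7 and 115 in KO+GFP and of 298, 245 and 321 in the KO controls, a log2 difference of -1.46. Pmp22 had 147, 206 and 174 against 350.4, 353 and 312 (-0.95), and Prx 41.6, 66.1 and 30.8 against 113, 71.6 and 80.8 (-0.97). Each KO+GFP library was below each control for these 3 genes. Sox10 did the same at 6.75, 9.09 and 4.41 against 15.9, 11.4 and 16.6 (-1.04). Egr2 overlapped, at 3.38, 7.44 and 4.41 against 5.96, 12.5 and 2.07 (-0.18). In this contrast 3.09% of all 14477 genes passed the test. How many of all genes had no overlap between the 3 and 3 libraries was not counted. The lack of overlap therefore says nothing particular about the members.

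Ngfr, Cntn2 and S100b fell below the count filter in the GFP set. Ngfr had 3.38, 0.826 and 1.76 in KO+GFP and 6.95, 5.68 and 5.18 in the controls. Cntn2 had 1 read over the 3 KO+GFP libraries and 3 over the controls, and S100b 1.13, 2.48 and 6.17 against 7.94, 2.27 and 9.33. The 11 tested genes of the myelinating list had a median of -1.11 against 0.00 over all genes, and the 11 of the Schwann lineage and non-myelinating list a median of 0.05. Other markers moved beside them in these 6 libraries. The summed macrophage genes were 485 to 572 in KO+GFP and 190 to 257 in the controls, and the summed slow fiber genes 12214 to 16806 and 1622 to 8155, and neither overlapped. Their part in the nerve values was not tested.

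**Figure D4:**
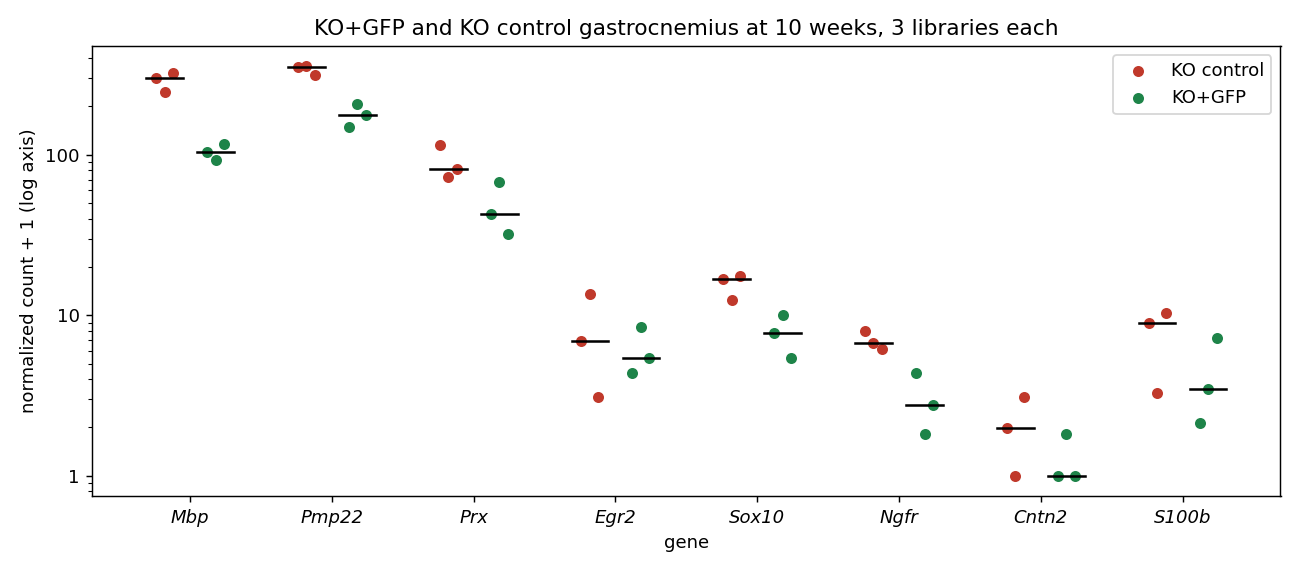
Normalized count plus 1 (log axis) of the 8 genes in the 3 KO+GFP (green) and 3 KO control (red) libraries at 10 weeks, with a bar at each median. All KO+GFP points of Mbp, Pmp22, Prx, Sox10 and Ngfr lie below the control points, and those of Egr2, Cntn2 and S100b overlap.

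The other tissues showed where the genes are expressed apart from muscle nerve. Each tissue had its own normalization, so levels are given as RPM, reads of the gene scaled to library depth, without a test. Pmp22 had a median of 499 in lung, 125 in white fat, 29.1 in gastrocnemius, 27.6 in heart and 1.94 in liver, and Prx 309 in lung against 10.8 in gastrocnemius and at most 3.24 in the rest. Sox10 was highest in gastrocnemius, at 1.68, and had no read in the 8 liver libraries. Cntn2, known from the conduction system of the heart, had a median of 4.81 in heart and 0.0958 in gastrocnemius.

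In these tissues no member passed KO+AAV minus KO at 40 weeks by limma, and in lung 1 passed by DESeq2. By limma 0 of 7 tested members were called in lung, where 0.0237% of all genes passed, 0 of 8 in heart, 0 of 5 in liver and 0 of 8 in white fat, where 0% passed in each. An unadjusted P under 0.05 was reached by 3 members in lung, 0 in heart, 1 in liver and 1 in white fat. In lung Pmp22 was at -0.35 (SE 0.09, adjusted P = 0.176, limma), and at -0.36 by DESeq2 (adjusted P = 0.0135), which called 628 genes there against 5 by limma, and S100b at 1.42 (SE 0.42, adjusted P = 0.234).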

How the data were processed

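RNA was extracted from gastrocnemius, lung, heart, liver and white fat, and poly(A) libraries were sequenced at ICBR or Novogene. The authors aligned reads with HISAT2 to GRCm38, counted them per gene with HTSeq and divided them by DESeq2 size factors; the annotation release and strand setting are not given in the sources used here. The deposited values are signal values of this kind, normalized counts with 1 factor per library, and whole reads were recovered for 100% of them. Each table column was matched to a sample by its label, and 0 columns were left unused.

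Differences were tested with limma 3.58.1 (intensity trend, R 4.3.3) on log2(normalized count + 1) over genes with a mean above 5, in 1 fit of the 34 gastrocnemius libraries with 6 groups and site as a covariate, and in separate fits for the GFP set and each other tissue. P values were adjusted by Benjamini-Hochberg over all genes of a fit, with calls at an adjusted P under 0.05. A further fit added the nerve index as a covariate. On simulated data with 200 genes changed 2-fold, the fit of WT minus KO called 80.5% of them at 10 weeks and 73% at 40 weeks, and 5.29% and 8.75% of its calls were false. The changed genes had higher mean counts than Cntn2 (10.4), Egr2 (14.6) and Ngfr (18.7) over the 34 libraries. No site effect and no variation shared between genes was simulated, so these shares do not carry over to the members. edgeR 4.0.16 and DESeq2 1.42.0 on the recovered reads, a pseudocount of 0.5, other filters, no site term, single sites, a replicate block and leaving out each library were alternatives. Correlations were Pearson's r on log2 values after group and site means were removed. Counting intervals are exact at 95% and cover counting error only. Libraries of a group were taken as separate mice, and P values measure only the spread between them, part of which may be technical.

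The members, gene lists and tests were chosen with earlier results of these data known. Genes named are the 8 members, Arntl, at most 3 called genes per list and direction by smallest P, and the 10 genes most like the members, besides genes said to be chosen after their values were seen. Cntnap2 by library, the list results without KO replicate 2, and the tests of age by genotype without a filter were added after the data were seen. Exon lengths and positions come from GENCODE vM21 on GRCm38, and promoters from RefSeq. Results on some list genes are not reported here.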

Additional observations from a re-analysis of the deposited data

Results flagged for a closer look

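Of 110 sets of values (a member in a group of 4 to 10 libraries), 18 had 1 library far from the rest by Dixon's criterion. Chance gives this in about 1 of 20 for independent, normally distributed values. These are counts, some with a single read, of genes that vary together, so that the 18 cannot be set against that rate. At 10 weeks these were Ngfr in WT replicate 7, with a normalized count of 30.3 against 12.6 for the next library, Mbp and Pmp22 in KO replicate 5, with 1924 (next 718) and 1834 (next 808), and Egr2 in KO+AAV replicate 5, with 45.5 (next 19.6). At 40 weeks WT replicate 3 stood apart for Mbp at 1481 (next 549), Pmp22 at 1182 (next 580.1) and Prx at 612 (next 261), and WT replicate 5 for Cntn2 at 1.56, a count of 1 read, where the other 4 libraries had none. KO replicate 5 stood apart for Mbp at 2207 (next 644), Pmp22 at 1509 (next 424), Prx at 758 (next 205) and Egr2 at 45.5 (next 14.3).

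Among the other tissues, Ngfr in KO lung replicate 1 was low at 10.5 (next 37.4). KO heart replicate 4 stood apart for Mbp at 1215, above every other library of its group, and Cntn2 at 539 (next 54.1). S100b had 0.959 in KO liver replicate 3 and 0.987 in KO+AAV liver replicate 3, where the other libraries of each group had 0, and Egr2 in KO white fat replicate 2 was at 11403 (next 104).

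The fitted age differences of Cntn2 lay apart between genotypes, by -4.21 for WT against KO (adjusted P = 0.00434, limma) and by -4.29 for WT against KO+AAV (adjusted P = 0.00183, limma). Cntn2 passed the count filter only through the KO and KO+AAV libraries of 40 weeks, so that these values are a description.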

How the results depend on the processing

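Over 23 comparisons and 301 alternatives, the number of members called stayed within 1.5 times its main value in 294, and no difference of a called member changed sign. With a filter of a mean above 50, 0 members were called in WT minus KO and WT minus KO+AAV at 40 weeks (3 and 2 otherwise) and 0 in the age comparisons of KO and KO+AAV (1 and 1), since Cntn2, Ngfr and S100b fall under that filter. With an index of Schwann lineage genes, 1 member was called in WT minus KO at 10 weeks, Mbp at -0.85 (adjusted P = 0.0195, limma). In lung DESeq2 called 1, Pmp22, and P under 0.01 called 2, Pmp22 and S100b. S100b in WT minus KO at 40 weeks lost its call in 10 of 16 alternatives, among them edgeR (1.16, adjusted P = 0.163), DESeq2 (1.19, adjusted P = 0.117) and leaving out WT replicate 3, 4 or 5 or KO replicate 1, 2 or 3, with adjusted P of 0.0599 to 0.247. In the 16 alternatives of WT minus KO and of WT minus KO+AAV at 40 weeks that tested them, Ngfr and Cntn2 stayed called. For Cntn2, which passed the count filter only through the groups where it was high, this is a description.

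Most same-numbered samples did not deviate together. In 32 pairs r ran from -0.25 to 0.37, with 5 above 0.1, among them the 40-week KO and KO+AAV libraries numbered 2, 3 and 5 at 0.37, 0.34 and 0.11, so that not every pair was above 0.1 and the numbers were not taken as pairs. With a replicate block Ngfr was at -1.56 (adjusted P = 0.00512, limma) and S100b at 1.76 (adjusted P = 0.0492) for WT minus KO at 40 weeks, with 3 members called, and no call of a member changed. Over all genes the block moved the calls from 1346 to 7 in KO with age, from 1382 to 115 in KO+AAV, from 24 to 1 in WT, from 42 to 15 in KO+AAV minus KO and from 2018 to 1336 in WT minus KO+AAV at 40 weeks, and from 834 to 1457 in WT minus KO+AAV at 10 weeks. KO with age called 471 genes without 40-week KO replicate 2, and KO+AAV with age 703 without 40-week KO+AAV replicate 2. With no filter the test of age by genotype called 28 genes for WT against KO (60 otherwise) and 0 for KO+AAV against KO (1 otherwise). In WT minus KO at 10 weeks 1296 genes were called, and 450 at Novogene alone. Lung had 5 calls by limma and 628 by DESeq2. The GFP contrast had 448, and 108 to 646 with 1 library left out. Members under about 10 reads a library, Cntn2 above all, are limited by depth.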

Other observations

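The genes whose levels over the 34 gastrocnemius libraries were most like those of Cntn2, chosen after their values were seen, were Cx3cl1 (r = 0.914), Ptpn14 (0.890), Sln (0.881), Krt18 (0.868) and Zc2hc1a (0.863). Their likeness is to the levels, group differences included. Sln, sarcolipin, a regulator of the calcium pump of muscle, had a mean normalized count of 18.7 ± 7.35 (SD, n = 5) in WT at 40 weeks, 1830.0 ± 996 in KO and 2138 ± 1535 in KO+AAV. The chemokine Cx3cl1 had 47.0, 252 and 363, and Krt18, an intermediate filament protein, 8.69, 342 and 429.

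The melanocyte gene Dct had normalized counts of 0, 7.52, 3.54, 1.56 and 0 in WT at 40 weeks, of 20.6, 50.1, 84.3, 14.3 and 17.9 in KO, and of 11.2, 8.42, 39.9, 6.10 and 16.8 in KO+AAV. Only KO+AAV replicate 4, at 6.10, lay within the WT range.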
